A study of Mus musculus with 8 samples.

Results

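The genes Bach2, Tox, Pax5, Runx1t1, Chd7, Ccnc, Ing3 and Phf14, which act in lineage choice or on chromatin, were followed in the messenger RNA of mouse MA9 leukemia cells. They are 8 of 49585 rows of the count table and were chosen by name, because they lie in a segment of chromosome 4 or of chromosome 6 in which genes used by every cell were counted as such. Gata2 KO cells (Gata2 -/-) lacked Gata2, a DNA-binding regulator that keeps early blood progenitors going, and were set against Gata2 f/f cells, whose Gata2 alleles were still flanked by recombination sites. Both genotypes carried the MA9 label, a common short form of the MLL-AF9 fusion oncogene, were labelled as AML of bone marrow origin, and grew with 15% serum, IL-3, IL-6 and SCF. Each genotype had 4 libraries, numbered 1 to 4. The labels used here give neither the Cre line nor clones nor whether the numbers stand for separate animals or cultures, so a p-value here reflects library-to-library spread, which may be technical.

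Blood cells choose a lineage through transcription factors that switch whole gene programs on and shut others off. Pax5 commits progenitors to the B cell lineage, Bach2 is a repressor that shapes B and T cell fate, and Tox is a nuclear HMG-box factor of T cell development. Runx1t1, also called ETO, is a corepressor best known as a fusion partner of RUNX1 in human acute myeloid leukemia. The other 4 genes act on chromatin or on the transcription machinery. Chd7 is an ATP-dependent nucleosome remodeler, Ccnc encodes cyclin C of the Mediator kinase module, Ing3 is a histone-reading subunit of the NuA4/TIP60 acetyltransferase complex, and Phf14 is a PHD finger protein that binds histones.

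Library totals ranged from 1942499 to 6237748 counts in Gata2 KO and from 1610369 to 5480086 in Gata2 f/f, and the libraries numbered 4 were the deepest of each genotype. The Gata2 row held 2, 0, 0 and 0 counts in Gata2 KO replicates 1 to 4, against 0, 0, 1 and 1 in Gata2 f/f replicates 1 to 4. Since 3 counts are what a count of 0 allows, between 0.481 and 1.86 CPM (counts relative to the library total) in these libraries for counting error only, no fold is given, and the labels of genotype have no check from Gata2 itself. Row names in other parts of the table were doubtful, since Actb held 10 counts and B2m 0 over all 8 libraries. Names were therefore read as genes only in the segments on chromosome 4 from 3831334 to 49521093 and on chromosome 6 from 11900292 to 30304539 (GRCm38). The Gata2 row, on chromosome 6 from 88193891 to 88207032, lies outside these segments. Its name is doubtful as well, so its counts do not show that Gata2 RNA was absent from either genotype.

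Inside the segments the names were set beside lists of genes with a known breadth of expression. The segments were chosen because ubiquitous genes were counted there, so the levels of these genes are no independent check of the names. All 26 listed ubiquitous genes had between 199.7 and 4028 CPM when the 8 libraries were pooled. Of these 26, 1 rose and 0 fell in Gata2 KO with genotype alone (edgeR), namely Ube2h, of the ubiquitin pathway (log2 fold change 0.97), against 12.5% of all rows that passed in either direction. With the replicate number as a block 6 of the 26 rose and 12 fell, against 18.8% of all rows higher and 16.7% lower. Of 24 listed genes restricted to tissues such as brain, liver or pancreas, 22 had under 1 CPM. The exceptions were Penk, the gene of an opioid peptide precursor, at 168 CPM and Epha7, an ephrin receptor gene, at 387 CPM. The segments start and end at listed ubiquitous genes, so each member has a counted one on both sides by construction. For Pax5 these were Clta at 0.492 Mb and Tomm5 at 0.395 Mb, and for Bach2 they were Ufl1 at 6.96 Mb and Ube2j1 at 0.445 Mb. Chd7 lay 0.0826 Mb from Rab2a on one side and 5.94 Mb from Otud6b on the other. Phf14 started 0.312 kb from Ndufa4, which runs the opposite way, and Ing3 lay between Lsm8 at 3.09 Mb and Ndufa5 at 2.54 Mb. Ccnc lay farthest from a listed ubiquitous gene, 6.90 Mb from Otud6b and 3.49 Mb from Ufl1. Tox lay 2.85 Mb from Rps20 and 1.54 Mb from Rab2a, and Runx1t1 5.14 Mb from Rab2a and 0.916 Mb from Otud6b.

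**Figure D1:**
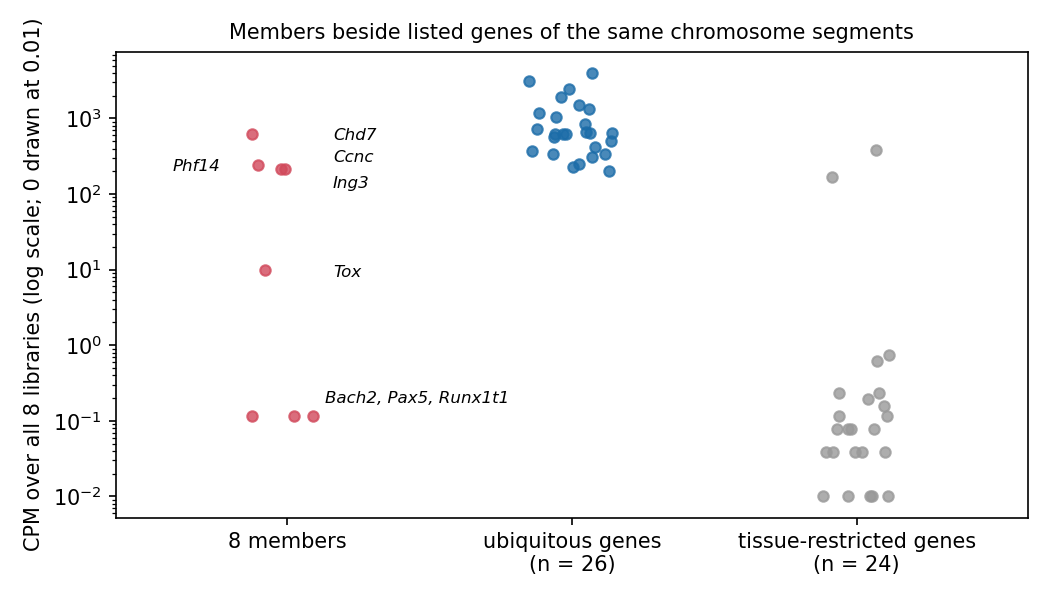
Each point is 1 gene, placed by its CPM over all 8 libraries on a log axis, for the 8 members, 26 ubiquitous genes and 24 tissue-restricted genes of the same chromosome segments. Chd7, Phf14, Ccnc and Ing3 lie among the ubiquitous genes, Tox lies at 9.78 CPM, and Bach2, Pax5 and Runx1t1 lie at 0.116 CPM among the restricted genes.

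Of the 8 members, 5 were expressed and 3 were silent. Silent meant that no library held more than 3 counts, and expressed that the row passed the expression filter of edgeR. No member fell between these classes. Bach2 (ENSMUSG00000040270.16, chromosome 4 from 32238804 to 32586108, plus strand) held 0 counts in all 4 Gata2 KO libraries, against 0, 1, 0 and 2 counts in Gata2 f/f replicates 1 to 4. Pax5 (ENSMUSG00000014030.15, chromosome 4 from 44524757 to 44710487, minus strand) held 0, 0, 0 and 1 counts in Gata2 KO replicates 1 to 4, against 1, 0, 0 and 1 in Gata2 f/f replicates 1 to 4. Runx1t1 (ENSMUSG00000006586.15, chromosome 4 from 13743436 to 13893649, plus strand) held 1, 0, 0 and 0 counts in Gata2 KO replicates 1 to 4, against 0, 2, 0 and 0 in replicates 1 to 4 of Gata2 f/f. Pax5, Bach2 and Runx1t1 thus had 3 counts each over all 8 libraries, with at most 2 in any one, and no difference between genotypes was detectable at this depth. The rows of antisense and intronic transcripts that overlap Pax5 and Bach2 held at most 1 count each over all libraries. The nearest tested rows around Pax5 were well counted, with Melk at 327 CPM and Zcchc7 at 109 CPM in the pooled libraries, and around Bach2 Map3k7 had 424 CPM and Casp8ap2 234 CPM.

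The start regions of expressed Ccnc and Phf14 and of silent Pax5 and Bach2 are shown to set expressed and silent members side by side. For 5 of the 8 members RefSeq (GRCm38.p6) gave a start, and the 250 bases before it are printed 5′ to 3′ on the strand of the gene, with capitals on any match, on either strand, to AGATAA or its variant AGATAG, or to TGATAA or its variant TGATAG, the letters that GATA factors prefer. The windows are chr4:21727451-21727700 (plus strand) for Ccnc, chr6:11907579-11907828 (plus strand) for Phf14, chr4:44710695-44710944 (minus strand) for Pax5 and chr4:32417185-32417434 (plus strand) for Bach2, whose RefSeq start lies inside the annotated gene.
Ccnc: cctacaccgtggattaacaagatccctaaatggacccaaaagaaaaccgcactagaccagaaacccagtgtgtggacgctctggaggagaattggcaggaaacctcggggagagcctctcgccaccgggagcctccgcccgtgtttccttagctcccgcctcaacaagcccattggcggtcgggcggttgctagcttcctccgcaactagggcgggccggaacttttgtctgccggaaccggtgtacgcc
Phf14: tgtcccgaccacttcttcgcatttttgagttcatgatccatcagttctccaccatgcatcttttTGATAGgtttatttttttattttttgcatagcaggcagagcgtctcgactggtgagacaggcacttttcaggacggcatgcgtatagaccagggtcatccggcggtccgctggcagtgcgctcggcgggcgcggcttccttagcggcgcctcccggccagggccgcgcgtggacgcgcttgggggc
Pax5: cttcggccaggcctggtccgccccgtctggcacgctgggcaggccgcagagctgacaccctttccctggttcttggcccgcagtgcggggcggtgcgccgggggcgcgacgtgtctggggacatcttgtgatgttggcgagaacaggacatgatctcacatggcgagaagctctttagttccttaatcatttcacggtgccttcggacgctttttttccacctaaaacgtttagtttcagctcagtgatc
Bach2: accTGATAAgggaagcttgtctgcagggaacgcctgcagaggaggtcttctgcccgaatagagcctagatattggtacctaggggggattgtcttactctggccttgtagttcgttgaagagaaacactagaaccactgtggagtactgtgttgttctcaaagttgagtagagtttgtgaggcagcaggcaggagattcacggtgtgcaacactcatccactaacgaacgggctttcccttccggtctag
The window of silent Pax5 held 19 CpG dinucleotides, against 18 for Ccnc, 21 for Ing3 and 22 for Phf14, which were expressed, and 7 for silent Bach2. Over 32817 such windows the median was 6 and the upper quartile 16. The letters occurred once before Phf14 and once before Bach2 and in 26.6% of all windows, and were not in the windows of Ccnc, Ing3 and Pax5.

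Among the expressed members, levels per kilobase of merged exons differed by more than their spread only in part. The median over 8 libraries was 49.5 CPM per kb for Ccnc (range 31.9 to 61.3), 45.6 for Ing3 (39.1 to 50.1), 26.6 for Chd7 (21.8 to 67.5), 13.2 for Phf14 (11.8 to 17.9) and 1.03 for Tox (0.614 to 2.002). The ranges of Ccnc, Ing3 and Chd7 overlapped. Phf14 lay below Ccnc, Ing3 and Chd7 in every library, and Tox lay below Phf14 in every library. Merged exons ran to 16040 bases for Phf14 and 13786 for Chd7, so a level per kilobase is low where only short transcripts of a gene are made.

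The comparison asks which of these regulators differ in leukemia cells without Gata2. With genotype alone in the model, 0 of the 5 expressed members passed an adjusted p of 0.05 in the edgeR quasi-likelihood test (0 higher and 0 lower in Gata2 KO), against 12.5% of all 6580 rows tested (8.97% higher and 3.53% lower). Tox alone had an unadjusted p under 0.05, which 26% of all rows had, and DESeq2 called 0 of the 5. The median absolute log2 fold change was 0.04 over the 5 members and 0.22 over all rows, which were not matched to the members in expression level. The genotypes overlapped for each of the 5, while they did not overlap in 19.1% of all rows. With the replicate number as a block, a model that compares same-numbered libraries, Tox passed as higher and the other 4 did not pass, against 35.5% of all rows (18.8% higher and 16.7% lower).

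Ccnc (ENSMUSG00000028252.20, chromosome 4 from 21727701 to 21759922, plus strand), the cyclin that activates the Mediator kinases, had 313, 251, 226 and 163 CPM in Gata2 KO replicates 1 to 4, against 264, 264, 255 and 177 CPM in Gata2 f/f replicates 1 to 4. CPM of a gene in single libraries and their means, here, below and in the levels per kilobase, are scaled by TMM, edgeR's correction for library composition. Pooled CPM and the summed CPM of marker rows are relative to library totals without this correction. The library numbered 4 was the lowest of each genotype, and the groups overlapped. The mean was 238 ± 62.2 CPM in Gata2 KO and 240.1 ± 42.1 CPM in Gata2 f/f (SD, n = 4 each). Its log2 fold change was -0.01 ± 0.19 (SE) with a 95% interval of -0.44 to 0.41, and with the block the interval was -0.19 to 0.12 (adjusted p = 0.983 and 0.749, edgeR). The kit does not mark strand, and Ccnc shares 2541 bases of its span with Tstd3 on the other strand, so reads of the shared part cannot be told apart.

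Ing3 (ENSMUSG00000029670.12, chromosome 6 from 21949571 to 21976038, plus strand), which binds methylated histone H3 tails for the acetyltransferase complex, had 222, 228, 216 and 209 CPM in Gata2 KO replicates 1 to 4. In Gata2 f/f replicates 1 to 4 it had 240.3, 221, 205 and 188 CPM. It was the steadiest of the 5, with a mean of 219 ± 8.10 CPM in Gata2 KO and 213 ± 22.6 CPM in Gata2 f/f (SD, n = 4 each). Its log2 fold change was 0.04 ± 0.11 (SE, 95% interval -0.19 to 0.27, adjusted p = 0.878, edgeR), and the interval with the block was -0.10 to 0.19 (adjusted p = 0.633). Intervals of this width leave out a change of 1 log2 unit in either direction for Ing3 and Ccnc.

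Phf14 (ENSMUSG00000029629.17, chromosome 6 from 11907809 to 12081205, plus strand), the PHD finger protein, had 201, 189, 193 and 268 CPM in Gata2 KO replicates 1 to 4, against 233, 199, 221 and 287 CPM in Gata2 f/f replicates 1 to 4. In each of the 4 same-numbered pairs the Gata2 KO library was the lower one, by 0.07 to 0.21 on the log2 scale, a pattern of 1 direction in all pairs that 47.7% of all rows had. The mean was 213 ± 36.9 CPM in Gata2 KO and 235 ± 37.1 CPM in Gata2 f/f (SD, n = 4 each). Its log2 fold change was -0.14 ± 0.15 (SE, adjusted p = 0.604, edgeR), and -0.14 ± 0.07 with the block, where the 95% interval ran from -0.28 to -0.0036 and the adjusted p was 0.105. The difference is small and did not pass in either model.

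Chd7 (ENSMUSG00000041235.11, chromosome 4 from 8690406 to 8867659, plus strand), the nucleosome remodeler, had 302, 400.4, 354 and 881 CPM in Gata2 KO replicates 1 to 4. In Gata2 f/f replicates 1 to 4 it had 301, 343, 379 and 930.1 CPM. Both libraries numbered 4 stood far above the others, and the genotypes overlapped. The mean was 484 ± 267 CPM in Gata2 KO and 488 ± 296 CPM in Gata2 f/f (SD, n = 4 each). Its log2 fold change was -0.01 ± 0.40 (SE, 95% interval -0.88 to 0.85, adjusted p = 0.992, edgeR). With the block it was 0.00 ± 0.07, and the interval narrowed to between -0.14 and 0.15 (adjusted p = 0.967). Without Gata2 KO replicate 4 the log2 fold change was -0.48 and without Gata2 f/f replicate 4 it was 0.51, neither past the threshold (adjusted p = 0.368 and 0.256, edgeR). With neither it was 0.058.

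Tox (ENSMUSG00000041272.11, chromosome 4 from 6686353 to 6991557, minus strand), the HMG-box factor of T cell development, was the weakest of the expressed members and the one of the 5 with the largest log2 fold change. It held 10, 32, 53 and 89 counts in Gata2 KO replicates 1 to 4, against 17, 11, 10 and 30 counts in Gata2 f/f replicates 1 to 4. Scaled, these were 5.42, 15.2, 13.1 and 13.6 CPM in Gata2 KO, against 8.81, 6.86, 4.68 and 5.13 CPM in Gata2 f/f. Gata2 KO replicates 2, 3 and 4 lay above all Gata2 f/f libraries, while Gata2 KO replicate 1 lay among them. The mean was 11.9 ± 4.38 CPM in Gata2 KO and 6.37 ± 1.88 CPM in Gata2 f/f (SD, n = 4 each).

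For Tox the log2 fold change was 0.97 ± 0.32 (SE, 95% interval 0.26 to 1.68) and did not pass with genotype alone (adjusted p = 0.0746, edgeR). With the replicate number as a block Tox rose by 1.03 ± 0.27 and passed (adjusted p = 0.00651). The pairs differed in direction, at 1.08, 1.38 and 1.31 on the log2 scale for numbers 2, 3 and 4 and -0.64 for number 1. The SD of these pair differences was 0.96. The SE of the fit with the block comes from the edgeR F-test and does not measure this spread. Without Gata2 KO replicate 1 Tox passed with genotype alone (log2 fold change 1.17, adjusted p = 0.0178). With the block but neither library numbered 4 it did not pass (0.77, adjusted p = 0.129, edgeR), and without both numbered 1 it did (1.36, adjusted p = 1.68e-05, edgeR). The fit without number 1 was chosen after seeing the data. It leaves out the only pair that was lower in Gata2 KO, so a larger fold change was bound to follow. Over all settings tried, that fit included, the adjusted p ran from 1.68e-05 to 0.193, so the call rests on the model and on single libraries, at 10 to 89 counts a library. The other T cell marker of the segments, Sit1, was silent. Of the 8 T cell marker rows by name, 6 lie outside the segments and so are unchecked. Only 3 of the 8 could be tested, and of these Tox alone passed with the block, where 35.5% of all rows passed. The summed T cell rows, Tox among them, ran from 64.9 to 76.8 CPM in Gata2 KO and from 66.1 to 77.8 CPM in Gata2 f/f. Most of the sum came from the unchecked rows Lck and Cd8a, at 41.2 and 17.4 CPM in the pooled libraries. The part of T cells in the level of Tox was not tested. In bulk libraries, more cells with Tox and more Tox RNA per cell in Gata2 KO cannot be told apart.

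**Figure D2:**
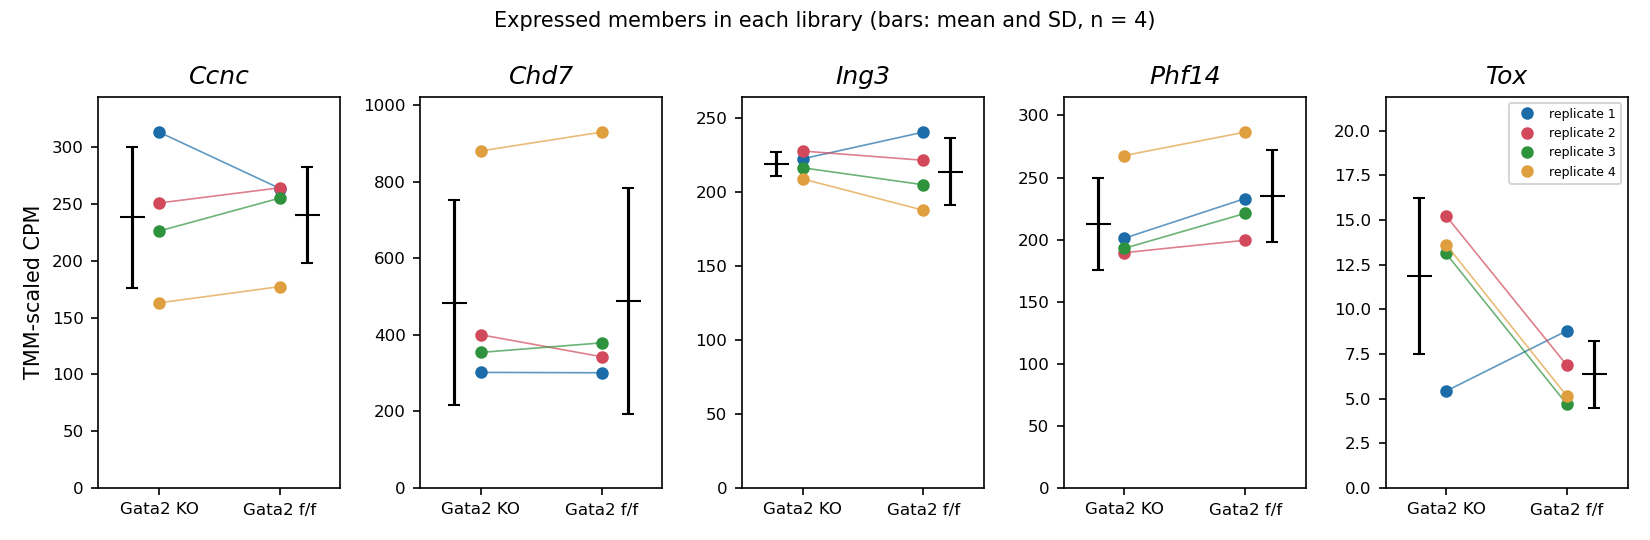
TMM-scaled CPM of the 5 expressed members in each library, Gata2 KO left and Gata2 f/f right, with lines joining libraries of the same number and bars for the mean and SD (n = 4 each). Replicate 4 is the highest for Chd7 and Phf14 and the lowest for Ccnc in both genotypes, and Tox is higher in Gata2 KO in the pairs numbered 2, 3 and 4.

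**Figure D3:**
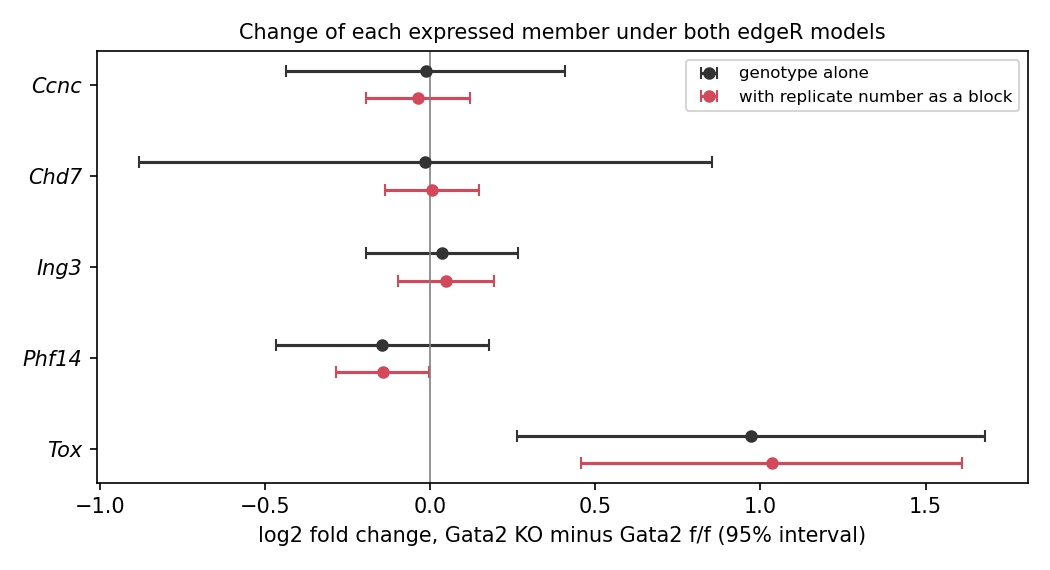
Log2 fold change of each expressed member, Gata2 KO minus Gata2 f/f, with its 95% interval, with genotype alone (black) and with the replicate number as a block (red). The interval of Chd7 narrows from -0.88 to 0.85 to between -0.14 and 0.15 with the block, and that of Tox lies above 0 in both models.

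The replicate number moved some members more than the genotype did. Chd7 in replicate 4 was 2.501 times the mean of replicates 1 to 3 in Gata2 KO, against 2.73 times that mean in Gata2 f/f. Of all tested rows, 2.20% were at least 1 log2 unit higher in replicate 4 in both genotypes. Ccnc in replicate 4 was 0.618 times the mean of the others in Gata2 KO, against 0.679 times in Gata2 f/f. Phf14 was 1.38 times that mean in Gata2 KO, against 1.32 times in Gata2 f/f. Number 4 was the highest of 4 in both genotypes for Chd7 and Phf14, as in 26.4% of all rows, and the lowest for Ccnc and Ing3, as in 24.1%. Of the 223 tested rows of the segments, it was the highest in both genotypes for 36 and the lowest in both for 109.

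Position in replicate 4 was set beside exon length. Chd7 and Phf14, at 13786 and 16040 bases, were the high ones, and Ccnc and Ing3, at 5115 and 4796 bases, the low ones, while Tox, at 7609 bases, was higher in replicate 4 of Gata2 KO only (0.38, against -0.32 in Gata2 f/f, log2 scale). In the 74 tested segment rows with the shortest exons, at most 2372 bases, the median of replicate 4 minus the others was -0.36 on the log2 scale in Gata2 KO, against -0.32 in Gata2 f/f. In the 74 rows between, which include Ccnc and Ing3, it was -0.16 in Gata2 KO, against -0.21 in Gata2 f/f. In the 75 rows with the longest, at least 5242 bases, it was -0.0195 in Gata2 KO, against -0.0078 in Gata2 f/f. Of these 75 rows, replicate 4 was the highest in both genotypes for 24 and the lowest in both for 25. For the 74 rows between, these counts were 9 and 35, and for the 74 shortest they were 3 and 49. Depth moved with replicate 4 as well, at 6237748 counts in Gata2 KO, against 5480086 in Gata2 f/f. The part of depth or transcript length in the level of Chd7 was not tested.

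**Figure D4:**
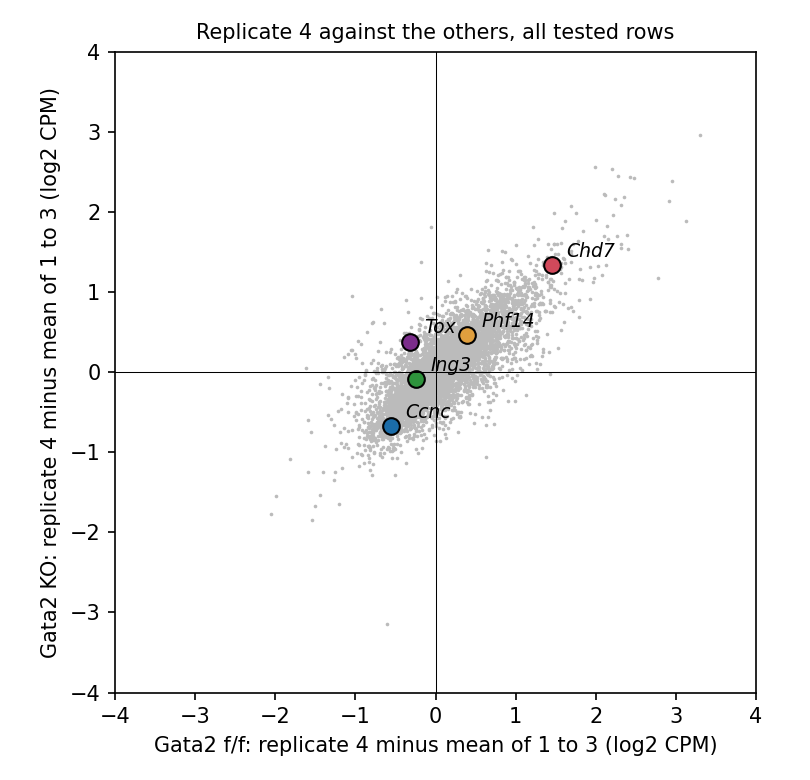
Replicate 4 minus the mean of replicates 1 to 3 in log2 CPM, in Gata2 KO (vertical axis) and in Gata2 f/f (horizontal axis), for all 6580 tested rows (grey) and the 5 expressed members. Chd7 lies at the upper right at 1.33 in Gata2 KO, against 1.45 in Gata2 f/f, and Ccnc lies at the lower left.

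The rows most like each member over the 8 libraries were sought among 185 other named rows tested in the segments, by the root mean square difference of centred log2 CPM. Pnisr, the gene of a nuclear serine- and arginine-rich protein, was nearest to Chd7 at 0.19, where the median row was at 0.74. It had 88.9, 90.0, 77.0 and 259 CPM in Gata2 KO replicates 1 to 4, against 94.8, 92.3, 89.8 and 264 CPM in Gata2 f/f replicates 1 to 4, high in replicate 4 in both genotypes. Ndufb6, of respiratory complex I, was nearest to Ccnc at 0.08, the ubiquitin-conjugating enzyme gene Ube2r2 to Ing3 at 0.06, and Arhgef39 to Phf14 at 0.08. None of these 4 passed in edgeR with or without the block (adjusted p from 0.134 to 0.98). Tox had no close match. Its nearest row was Cped1 at 0.37, with 13.6 ± 2.35 CPM in Gata2 KO and 9.90 ± 1.75 CPM in Gata2 f/f (SD, n = 4 each).

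Other regulators of the same segments were described from lists, whose counts stand beside those of all 223 tested segment rows. Of these 223 rows 22 rose and 6 fell in Gata2 KO with genotype alone, and 47 rose and 54 fell with the block (edgeR). Over all rows 8.97% rose and 3.53% fell with genotype alone. Of 14 other transcription factor genes in the segments, 9 were tested, 3 rose and 0 fell in Gata2 KO (edgeR). Irf5, a factor of inflammatory genes in macrophages, rose by 2.34 ± 0.15 on the log2 scale (adjusted p = 6.50e-06, edgeR). Creb3, a membrane-bound factor of the secretory pathway, was at 164 ± 33.3 CPM in Gata2 KO and 88.9 ± 14.6 CPM in Gata2 f/f (SD, n = 4 each, log2 fold change 0.89). Tfec, of the family of lysosomal and melanocyte factors, was at 1652 ± 236 CPM in Gata2 KO and 1114 ± 170 CPM in Gata2 f/f (SD, n = 4 each, log2 fold change 0.57). With the block Zfp800 (-0.26) and Nfx1 (-0.25) fell as well. Like Pax5, the developmental factors Fezf1, Pax4 and Foxe1 were silent.

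Of 17 genes of transcription, replication and chromatin in the segments, all were tested. Pnrc1, a coregulator of nuclear receptors, rose by 0.65 ± 0.14 on the log2 scale (adjusted p = 0.0102, edgeR), and 0 fell. With the block 1 rose and 10 fell, against 18.8% of all rows higher and 16.7% lower. Among the 10 were Mms22l, of replication fork repair (-0.28), Tex10 (-0.37) and Exosc3, of the RNA exosome (-0.40), each with its log2 fold change. The median log2 fold change of the 17 was -0.17 with genotype alone, against -0.02 over all tested rows of the segments. With the block Ccnc was at -0.04 and Ing3 at 0.05, each within its SE, and no test compared them with the list. The tested rows next to the members stand beside 12.5% of all rows that passed with genotype alone. Among these neighbours, Nsmaf beside Tox fell (-0.35, adjusted p = 0.0314, edgeR) and Ggh, 1661 kb before Ccnc, rose (0.94, adjusted p = 0.0266, edgeR). Both passed with the block as well, as did Rab2a between Tox and Chd7 (-0.24), Zcchc7 beside Pax5 (-0.44), Lsm8 before Ing3 (-0.32) and Tmem106b after Phf14 (0.31), each with its log2 fold change from genotype alone, where 35.5% of all rows passed with the block.

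Partners and relatives of the members lie outside the segments, so their values are those of rows by name, with no gene role given. Of the 6 rows named for the Mediator kinase module beside Ccnc, 0 could be tested, and the highest, Med13l, had 4.70 CPM in the pooled libraries. Of 16 rows named for the NuA4/TIP60 complex of Ing3, 7 were tested and 0 passed in edgeR, while with the block Trrap rose (0.37) and Vps72 fell (-0.53). Of 15 rows of the B lineage program beside Pax5, 5 were tested and Il7r rose (1.73, adjusted p = 0.0429, edgeR), and the Rag1 row was silent. Of 25 paralog rows 9 were tested and 0 passed in edgeR, while with the block Cbfa2t2 rose (0.27) and Cbfa2t3 (-0.36), Chd4 (-0.31) and Chd1 (-0.27) fell. Beside these calls, 12.5% of all rows passed with genotype alone and 35.5% with the block, and no test compared the lists with these shares.

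Marker rows of other cell types were mostly low. Of the B cell, the erythroid and the stromal and endothelial rows, 2, 1 and 2 lie inside the segments. The names of the rest are unchecked, so their low counts do not show that such cells were absent. Of 11 B cell rows 3 were tested and 0 passed with or without the block, with sums of 518 to 581 CPM in Gata2 KO and 554 to 637 CPM in Gata2 f/f, nearly all from the row named Igll1. All 6 erythroid rows were silent. Of 8 stromal and endothelial rows 2 were tested and 0 passed in edgeR, and with the block Pecam1 rose (0.20). The shares over all rows were 12.5% with genotype alone and 35.5% with the block. The B cell markers inside the segments, Pax5 and Cd72, stood at 0.116 and 0.815 CPM in the pooled libraries. The erythroid marker inside them, Tmod1, stood at 0.155 CPM, pooled likewise. The stromal and endothelial ones, Col15a1 and Cav1, stood at 4.04 and 0.0388 CPM.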

How the data were processed

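The 8 poly(A) libraries were made with the NEBNext Ultra II RNA kit and read as pairs of 65 bp, per the labels' protocols. That kit does not mark strand. The deposited values are raw integer counts, 1 row for each Ensembl gene. The submitters' processing notes list the build mm10 and, without versions, the tools kallisto, HTSeq and DESeq2; the one that made the table is not given in the sources used here. Each column was assigned through its sample's description, and 0 other columns were present. Coordinates and merged exon lengths are from GENCODE M21 (GRCm38), matched on the identifier without its version, and 7 of the 8 members had the same version. Totals ran from 1610369 to 6237748.

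The test was that of edgeR 4.0.16 under R 4.3.3 (TMM, default expression filter by group with a minimum count of 10, quasi-likelihood F-test, genotype alone), with Benjamini-Hochberg adjustment over 6580 rows and a threshold of 0.05. An SE was obtained by dividing the fold change by the root of F, and log2 CPM used a prior count of 2. In simulated counts with 200 changed rows of 1 log2 unit, 94% were recovered. The simulated rows all had the same variability between libraries and no effect of the replicate number. Only well-counted rows, unlike Tox, were changed, so the 94% does not describe the power for the members. Alternatives were DESeq2 1.42.0, other scalings, no filter, left-out libraries and the replicate block. Deviations of same-numbered libraries from their genotype means correlated at 0.213 to 0.804 and differently numbered ones at up to 0.182. Every same-numbered pair passed the criterion of 0.1, and the numbers, from the titles, were taken to pair the libraries. Some differently numbered pairs passed 0.1 as well, such as Gata2 KO replicate 2 with Gata2 f/f replicate 1 (0.182). The criterion therefore cannot tell same-numbered pairs from others. The lowest same-numbered value, 0.213, lay little above 0.182, and the highest, 0.804, was that of number 4. Calls with the block, that of Tox among them, depend on this assumed pairing. Replicates differed by more than sampling noise (chi-square over its degrees of freedom 2.28 to 24.2).

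The members and lists were chosen with earlier results of these data known. Named beside the members were the nearest tested rows, the most alike row and up to 4 tested members of each list with the smallest adjusted p. Fezf1, Pax4, Foxe1, Nfx1, Sit1, Cd72, Tmod1, Col15a1, Cav1, Med13l, Rag1 and the partners called with the block were named after their values were seen.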

Additional observations from a re-analysis of the deposited data

Results flagged for a closer look

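For the 5 expressed members 10 groups of 4 libraries were examined for a library far from the rest, and chance marks about 1 in 20 groups. In 4 of the 10 the gap to the nearest library, over the range of the group, exceeded Dixon's critical value at the 95% level, each time for replicate 4. Chd7 stood apart at 881 CPM in Gata2 KO replicate 4 and at 930.1 CPM in Gata2 f/f replicate 4, the first of these only just past that value. Ccnc stood apart, on the low side, at 177 CPM in Gata2 f/f replicate 4. Phf14 stood apart at 268 CPM in Gata2 KO replicate 4.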

How the results depend on the processing

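Phf14 and Tox kept their direction in all 18 alternatives, and Phf14, Ing3, Chd7 and Ccnc passed in none. Leaving out each library in turn gave log2 fold changes of 0.85 to 1.17 for Tox, -0.48 to 0.51 for Chd7, -0.17 to 0.14 for Ccnc, -0.029 to 0.096 for Ing3 and -0.28 to -0.04 for Phf14, with 0 to 1 members called higher, 420 to 722 of all rows higher and 120 to 381 lower, against 590 and 232 with all libraries. Lower calls were 133 and 128 without Gata2 KO replicates 2 and 3, 148 and 120 without Gata2 f/f replicates 2 and 3, and 381 without Gata2 f/f replicate 4. With the replicate block Tox was called at 1.03, making 1 member higher, Chd7 was at 0.0047, and 1237 rows were higher and 1102 lower. Fits with the block that left out the pair numbered 1, 2 or 3 were chosen after seeing the data. They gave 1.36, 1.00 and 0.90 for Tox, called each time (1 member higher), with 1376, 1094 and 994 rows higher and 1189, 898 and 803 lower. Without number 3 Chd7 was at 0.041 and Ccnc at 0.013. With the block but neither library numbered 4 Chd7 was at 0.051 and Ccnc at 0.0084, with 1016 rows higher and 711 lower, and without the block at 0.058 and 0.015, with 894 higher and 543 lower. With no filter Ccnc was at 0.0021. The sign of Chd7, Ccnc and, without Gata2 f/f replicate 4, Ing3 is therefore not settled, and the cause was not tested. Depth limits the silent members, which held at most 2 counts in a library.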
